A study of Homo sapiens with 18 samples.

Results

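The genes described are the protein arginine methyltransferases CARM1 (also called PRMT4), PRMT1, PRMT2, PRMT3, PRMT5, PRMT6, PRMT7 and PRMT9, with WDR77 and CLNS1A, which bind PRMT5. They are the 10 rows of the count table whose Ensembl gene identifier carries one of these symbols, of 57736 genes in all. All 10 passed the filter on low counts that left 17317 genes to be tested. PRMT8, the remaining enzyme of the family, is known from brain and was near the filter here, with 6 to 21 counts per library.

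Protein arginine methyltransferases move methyl groups from S-adenosylmethionine to the nitrogen atoms of arginine side chains. Type I enzymes (PRMT1, PRMT2, PRMT3, CARM1, PRMT6 and PRMT8) make asymmetric dimethylarginine, type II enzymes (PRMT5 and PRMT9) make symmetric dimethylarginine, and PRMT7 makes monomethylarginine. Histones, RNA-binding proteins and splicing factors are their best known substrates, and CARM1 acts on histone H3 and on coactivators at promoters, where it is known to raise transcription.

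RNA-seq covered A1847 cells, a line from a high-grade serous ovarian cancer that expresses CARM1. The 18 libraries fall into 6 groups of 3 replicates: control cells, CARM1 knockout cells and XBP1 knockdown cells, each given vehicle or tunicamycin at 5 μg/ml for 8 h. XBP1 encodes a transcription factor of the unfolded protein response, and tunicamycin blocks the attachment of sugars to proteins in the endoplasmic reticulum, so that unfolded proteins collect there. The knockout was made with a lentiviral CRISPR vector carrying a guide RNA to CARM1 and the knockdown with a lentiviral short hairpin RNA to XBP1. Control cells are labelled wild type. The study's methods list a scramble control shRNA but do not say whether the control cells sequenced carried it, and whether the knockout cells came from a single clone is not given in the sources used here. The study describes its experiments in general as biologically independent repeats, and the labels do not say whether the sequenced replicates were separate cultures. The p-values measure the spread between these libraries, which may in part be technical. The same control libraries serve the comparisons with both modified genotypes. Counts come from the 3′ ends of transcripts, so levels are compared between groups for each gene and never between genes. Levels are given in normalized CPM (counts relative to library size, scaled with TMM factors), with the SD over 3 libraries.

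The libraries labelled CARM1 knockout stood apart from the other 12. Across genes, log2 CPM correlated with r = 0.730 to 0.775 between the 6 knockout libraries and the others, against 0.961 to 0.987 between control and knockdown libraries and 0.986 to 0.989 between replicates. Library totals were 9367462 to 13917212 counts. PAX8, a lineage factor of ovarian and fallopian epithelium, had 0 to 2 counts in each library of control or knockdown cells and 465 to 840 in each of knockout cells. MSLN, which encodes the surface protein mesothelin, had 0 to 1 and 61 to 153. COL1A2 and COL3A1, collagen genes of fibroblasts, had 6840 to 12954 and 1582 to 3403 counts in control and knockdown libraries and 0 to 34 and 0 to 10 in knockout libraries. COL1A1, another collagen gene, went the other way, with 54 to 259 counts in control and knockdown libraries and 2205 to 6247 in knockout libraries. The study describes control, knockout and knockdown cells alike as A1847. PAX8 was at or near 0 in the libraries labelled wild type and present in those labelled knockout. PAX2, a developmental transcription factor outside the marker lists, went the other way, but it was picked for its likeness to CARM1 over these same libraries. It had 49.9 ± 0.630 CPM in vehicle-treated control and 0.621 ± 0.0491 CPM in vehicle-treated knockout cells. Of 9 ovarian epithelial markers, 6 were above 1 CPM in vehicle-treated knockout cells and 3 in vehicle-treated control cells, with summed levels of 2277 to 2345 and 311 to 331 CPM. KRT19 went the other way, with 0 counts in each knockout library and up to 44 in the others. Most of the vehicle-treated knockout sum came from KRT18, at 1481 ± 14.1 CPM, and KRT8, at 734 ± 24.5 CPM. WT1 had 3 to 13 counts in knockout libraries and 0 to 2 in the others, and MUC16 had 0 in all libraries. In vehicle-treated knockdown cells 3 of the 9 were above 1 CPM, and the sum was 131 to 143 CPM, below that of control cells, with KRT8 at 19.2 ± 1.25 CPM against 58.4 ± 3.75 and KRT18 at 115 ± 7.51 against 259.7 ± 7.09. The part of this in the knockdown's differences was not tested. Of 6 fibroblast markers, 2 were above 1 CPM in vehicle-treated knockout cells, with a sum of 462 to 501 CPM. In vehicle-treated control cells 4 were, with a sum of 1024 to 1117 CPM. Vehicle-treated knockdown cells also had 4, with a sum of 1006 to 1056 CPM. Leukocyte markers summed to 0.248 to 4.12 CPM over all libraries and endothelial markers to 0 to 0.318. Knockout against control therefore compared libraries that differed in 74.4% of genes tested with vehicle and 75.2% with tunicamycin, and which part of a member's difference goes with the loss of CARM1 was not tested.

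CARM1 (ENSG00000142453, chr19:10982229-11033751 on the + strand of GRCh37) was checked first, as the targeted gene. In vehicle-treated control cells the libraries had 165, 161 and 159.8 CPM, and in vehicle-treated knockout cells 73.4, 77.6 and 71.5 CPM. With tunicamycin they had 133, 139.7 and 133 CPM in control and 76.1, 67.3 and 70.1 CPM in knockout cells. Each knockout library lay below each control library, and none was near 0. By the fitted fold change, 44.4% of the control transcript level remained with vehicle (95% interval 41.1 to 48.0%) and 52.8% with tunicamycin (48.6 to 57.4%). The change was −1.17 on the log2 scale with vehicle (SE 0.0523, edgeR adjusted p = 1.21e-11, from quasi-likelihood F tests and the Benjamini-Hochberg method across the whole table) and −0.92 with tunicamycin (SE 0.0562, edgeR adjusted p = 9.40e-10). A frameshift in the coding sequence need not remove a transcript, and counts per gene do not show an edit or a protein. In bulk libraries, fewer cells with the transcript and less transcript per cell cannot be told apart. The loss of CARM1 transcript was not extreme among these libraries, since 2810 of the 17317 genes tested (16.2%) had a lower log2 fold change with vehicle and 3509 (20.3%) with tunicamycin.

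**Figure D1:**
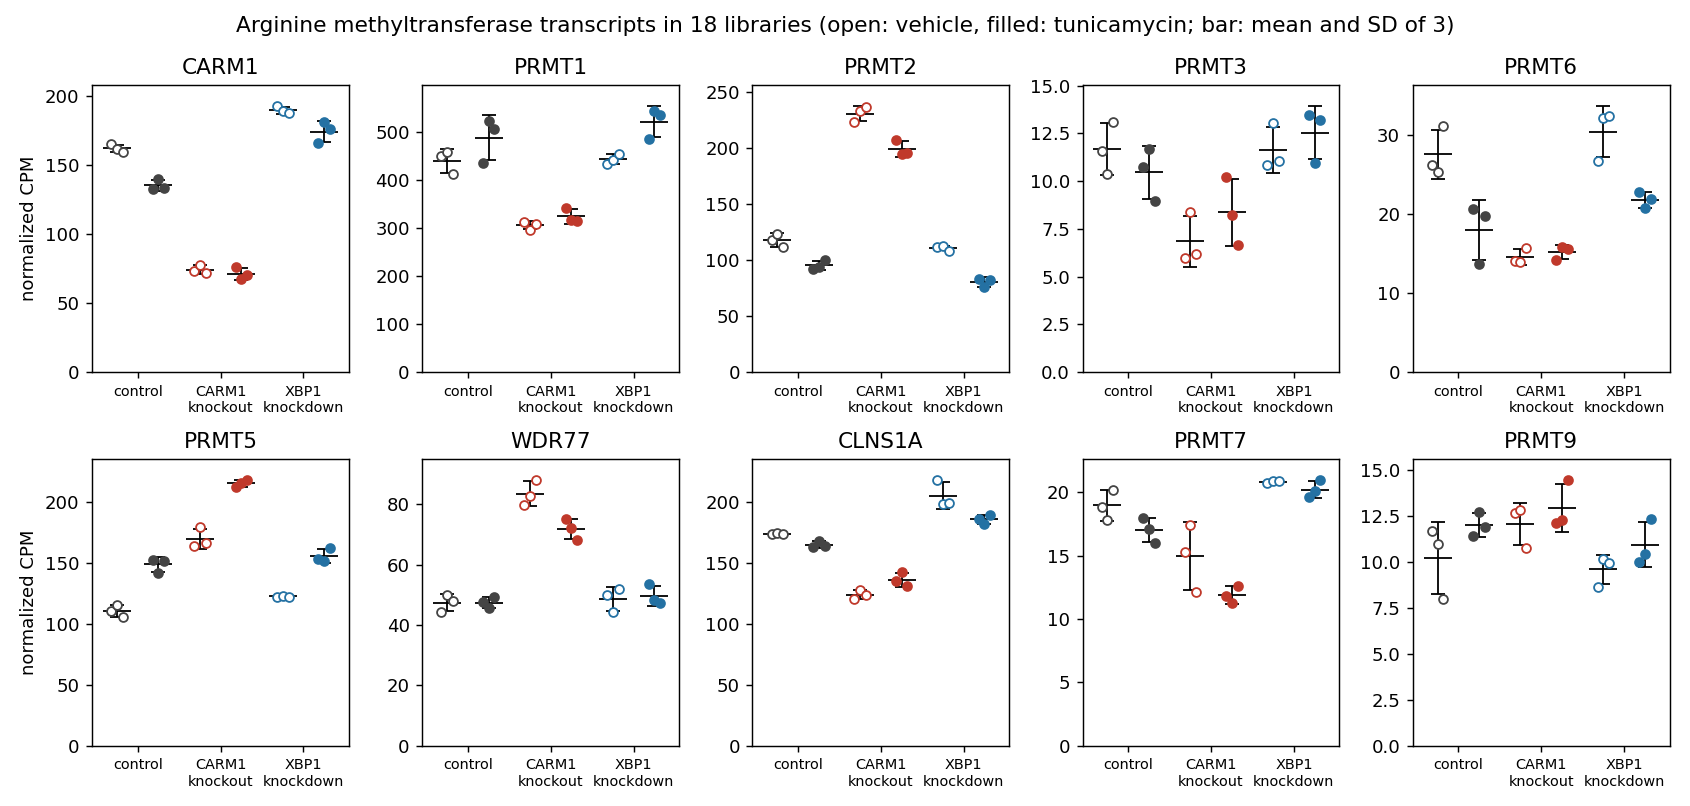
Normalized CPM of the 10 members in each of the 18 libraries, 1 panel a gene, with control cells in grey, CARM1 knockout in red and XBP1 knockdown in blue, open circles for vehicle, filled circles for tunicamycin, and bars for the mean and SD of 3 libraries. CARM1 was lowest in the 6 knockout libraries, at 67.3 to 77.6 CPM, and PRMT2, PRMT5 and WDR77 were highest there.

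The 3′ end of CARM1 overlaps that of YIPF2 (chr19:11032861-11039357 of GRCh37), a gene on the opposite strand that encodes a membrane protein of the Golgi. YIPF2 had 63 to 74 counts in vehicle-treated control libraries and 198 to 369 in vehicle-treated knockout libraries, with no overlap between the groups. It was higher in the knockout by 2.37 on the log2 scale with vehicle (SE 0.135, edgeR adjusted p = 2.42e-10) and by 1.96 with tunicamycin (SE 0.103, edgeR adjusted p = 1.64e-10). Whether counting used the strand is not given in the sources used here, so reads from the shared end cannot be told apart. The CPM of CARM1 and YIPF2 added up to 164 to 171 in vehicle-treated control libraries and to 94.1 to 104 in vehicle-treated knockout libraries, so the sum was lower too. HIKESHIP2, a pseudogene that is the next tested gene on the other side of CARM1, had 0 to 24 counts per library.

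Genes near CARM1 went in both directions in the knockout. Within 1 Mb of its start 60 genes were tested. With vehicle 24 were higher and 18 lower, beside 37.5% and 36.9% of all genes tested. The median log2 fold change of the 60 was 0.13 beside −0.03 over all genes. With tunicamycin 21 were higher and 15 lower, beside 38.4% and 36.8% of all genes. The median was 0.17 beside −0.02. Within 2 Mb the median with vehicle changed sign, as given in the last section. Of the 60 neighbours, 10 with vehicle and 9 with tunicamycin lay below CARM1, beside 16.2% and 20.3% of all genes tested. Within 0.5 Mb, 1 of 29 neighbours lay below CARM1 under either treatment, beside the same shares. PRMT1, on the other arm of chromosome 19, lay in the middle of its surroundings with vehicle. Its log2 fold change was −0.57 beside a median of −0.55 over the 74 tested genes within 1 Mb. Of these 39 were lower and 19 higher, beside 36.9% and 37.5% of all genes. PRMT7 (43 neighbours, median 0.22) and CLNS1A (24 neighbours, median 0.50) were lower while the median of their neighbours was above 0 with vehicle. PRMT3, PRMT6 and PRMT9 had only 2 or 3 tested neighbours.

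**Figure D2:**
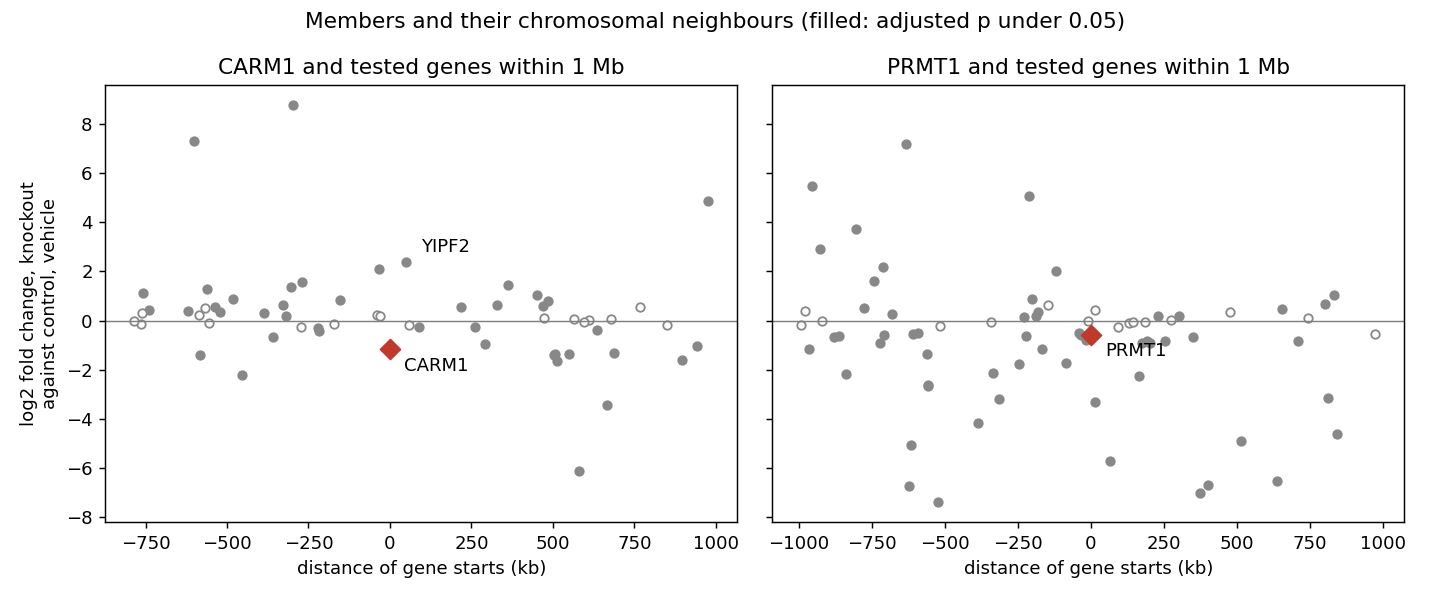
Log2 fold change of CARM1 knockout against control cells with vehicle (y axis) against the distance between gene starts in kb (x axis), for the 60 tested neighbours of CARM1 and the 74 of PRMT1, with the member as a red diamond, filled circles for genes past the threshold and open circles for the others. CARM1 at −1.17 lies below 50 of its neighbours, and YIPF2 at 2.37 lies above it.

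In the comparison of knockout with control cells, 9 of the 10 members passed the test with vehicle (3 higher, 6 lower), beside 74.4% of all genes tested, 37.5% as higher and 36.9% as lower. With tunicamycin 7 passed (3 higher, 4 lower), beside 75.2% of all genes, 38.4% as higher and 36.8% as lower. The libraries of the groups did not overlap for 9 members with vehicle and 7 with tunicamycin, beside 75.9% and 77.1% of all genes. With 10 members these shares are near those of all genes. The median log2 fold change of the 10 members was −0.45 with vehicle and −0.26 with tunicamycin. PRMT2, PRMT5 and WDR77 were higher under both treatments, CARM1, PRMT1, PRMT7 and CLNS1A were lower under both, and PRMT3 and PRMT6 passed as lower only with vehicle.

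Of the type I enzymes, PRMT1 (ENSG00000126457, chr19:50179043-50192286 on the + strand) makes most of the asymmetric dimethylarginine of mammalian cells. Its levels were 450.1, 457 and 412 CPM in vehicle-treated control libraries and 312, 296 and 308 in vehicle-treated knockout libraries. The groups did not overlap, and the knockout was lower by 1.48-fold (log2 fold change −0.57 ± 0.0485 (SE), edgeR adjusted p = 3.30e-08). With tunicamycin the levels were 434, 522 and 506 CPM in control and 341, 316 and 313 in knockout cells (log2 fold change −0.58 ± 0.0618 (SE), edgeR adjusted p = 5.45e-07). PRMT1 has a processed pseudogene, and reads from near-identical copies could be split between them.

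PRMT2 (ENSG00000160310, chr21:48055507-48085036 on the + strand), a nuclear enzyme with an SH3 domain that acts as a coactivator of nuclear receptors, moved the other way. Vehicle-treated libraries had 118, 124 and 112 CPM in control and 224, 233 and 236 CPM in knockout cells. With tunicamycin they had 92.4, 93.8 and 99.7 and 207, 195 and 196 CPM. Each knockout library was above each control library, by 1.90-fold with vehicle (log2 fold change 0.92 ± 0.0508 (SE), edgeR adjusted p = 1.59e-10) and 2.10-fold with tunicamycin (log2 fold change 1.07 ± 0.0504 (SE), edgeR adjusted p = 4.37e-11). PRMT2 was the most raised of the members under both treatments.

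PRMT6 (ENSG00000198890, chr1:107599296-107610258 on the + strand), which methylates histone H3 at an arginine that opposes the activating mark on the neighbouring lysine, had 26.3, 25.3 and 31.1 CPM in vehicle-treated control and 14.1, 13.9 and 15.7 CPM in vehicle-treated knockout libraries. It was 1.96-fold lower in the knockout (log2 fold change −0.97 ± 0.106 (SE), edgeR adjusted p = 6.07e-07). With tunicamycin the libraries had 20.6, 13.7 and 19.8 CPM in control and 14.2, 15.8 and 15.6 CPM in knockout cells. These groups overlapped through a single control library and the difference missed the threshold (log2 fold change −0.24 ± 0.137 (SE), edgeR adjusted p = 0.123). Without that library, replicate 2, it passed (log2 fold change −0.41, adjusted p = 0.00247), as it did with library totals (log2 fold change −0.41, adjusted p = 0.0145).

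PRMT3 (ENSG00000185238, chr11:20409104-20530884 on the + strand), a cytoplasmic enzyme that methylates the ribosomal protein RPS2, was measured from 54 to 196 counts. It had 11.6, 10.4 and 13.1 CPM in vehicle-treated control and 5.98, 8.38 and 6.18 CPM in vehicle-treated knockout libraries, without overlap (log2 fold change −0.81 ± 0.157 (SE), edgeR adjusted p = 0.000238). With tunicamycin the means were 10.5 ± 1.39 and 8.37 ± 1.77 CPM, and the difference missed the threshold (log2 fold change −0.32 ± 0.163 (SE), edgeR adjusted p = 0.0921). It passed without replicate 1 of the tunicamycin-treated knockout (log2 fold change −0.48, adjusted p = 0.0267) or replicate 3 of the tunicamycin-treated control (log2 fold change −0.41, adjusted p = 0.0480), and with library totals (log2 fold change −0.48, adjusted p = 0.0140).

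PRMT5 (ENSG00000100462, chr14:23389734-23398617 on the − strand), the main enzyme for symmetric dimethylarginine, had 110.4, 115 and 105 CPM in vehicle-treated control and 164, 179 and 166 CPM in vehicle-treated knockout libraries. With tunicamycin it had 153, 142 and 152 and 212, 215 and 218 CPM. It was higher in the knockout in all 3 libraries under both treatments, by 1.49-fold (log2 fold change 0.58 ± 0.0541 (SE), edgeR adjusted p = 9.96e-08) and 1.45-fold (log2 fold change 0.54 ± 0.0461 (SE), edgeR adjusted p = 4.90e-08). WDR77 (ENSG00000116455, chr1:111982512-111991878 on the − strand), the WD-repeat partner without which PRMT5 has little activity, had 44.4, 49.8 and 48 CPM in vehicle-treated control and 79.9, 82.7 and 88.1 CPM in vehicle-treated knockout libraries. It was 1.70-fold higher with vehicle (log2 fold change 0.77 ± 0.0655 (SE), edgeR adjusted p = 3.31e-08) and 1.52-fold higher with tunicamycin (log2 fold change 0.60 ± 0.0619 (SE), edgeR adjusted p = 3.86e-07). An unnamed long noncoding RNA overlaps WDR77 on the same strand with 279 to 1204 counts, and ATP5PB overlaps it on the other strand with 3803 to 6814, so their reads at the shared bases cannot be told apart.

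CLNS1A (ENSG00000074201, chr11:77225981-77348839 on the − strand), also called pICln, brings spliceosomal Sm proteins to PRMT5. It went opposite to PRMT5 and WDR77, from 174, 174 and 174 CPM in vehicle-treated control to 121, 128 and 124 CPM in vehicle-treated knockout libraries. The groups did not overlap (log2 fold change −0.53 ± 0.0472 (SE), edgeR adjusted p = 5.15e-08). With tunicamycin the levels were 164, 168 and 164 and 135, 143 and 131 CPM (log2 fold change −0.27 ± 0.0482 (SE), edgeR adjusted p = 0.000131). Of the other adaptors of PRMT5, RIOK1 was higher in the knockout with vehicle (log2 fold change 0.49, edgeR adjusted p = 3.52e-07) and with tunicamycin (log2 fold change 0.41, edgeR adjusted p = 1.32e-06). COPRS, which brings PRMT5 to histones, was lower with vehicle (log2 fold change −0.27, edgeR adjusted p = 0.000274) but did not pass the test with tunicamycin.

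PRMT7 (ENSG00000132600, chr16:68344854-68394755 on the + strand) had 18.9, 17.8 and 20.2 CPM in vehicle-treated control and 15.3, 17.4 and 12.1 CPM in vehicle-treated knockout libraries. It was lower with vehicle (log2 fold change −0.37 ± 0.122 (SE), edgeR adjusted p = 0.0121), but not past the threshold without replicate 3 of the vehicle-treated knockout, its lowest library (log2 fold change −0.26, adjusted p = 0.0605). With tunicamycin it was at 17 ± 0.968 CPM in control and 11.9 ± 0.685 CPM in knockout cells (log2 fold change −0.51 ± 0.104 (SE), edgeR adjusted p = 0.000444). PRMT9 (ENSG00000164169, chr4:148558936-148605314 on the − strand), which methylates the splicing factor SF3B2, did not pass the test under either treatment. Its means were 10.2 ± 1.97 and 12.1 ± 1.15 CPM with vehicle, and the 95% interval of the log2 difference was −0.10 to 0.53. With tunicamycin the interval was −0.13 to 0.36. TMEM184C overlaps PRMT9 on the other strand, its 3′ end included, with 238 to 390 counts per library, so reads at the shared bases cannot be told apart. PRMT8 had 0.14 and −0.53 on the log2 scale (edgeR adjusted p = 0.782 and 0.251) with 95% intervals of −0.77 to 1.04 and −1.39 to 0.34.

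**Figure D3:**
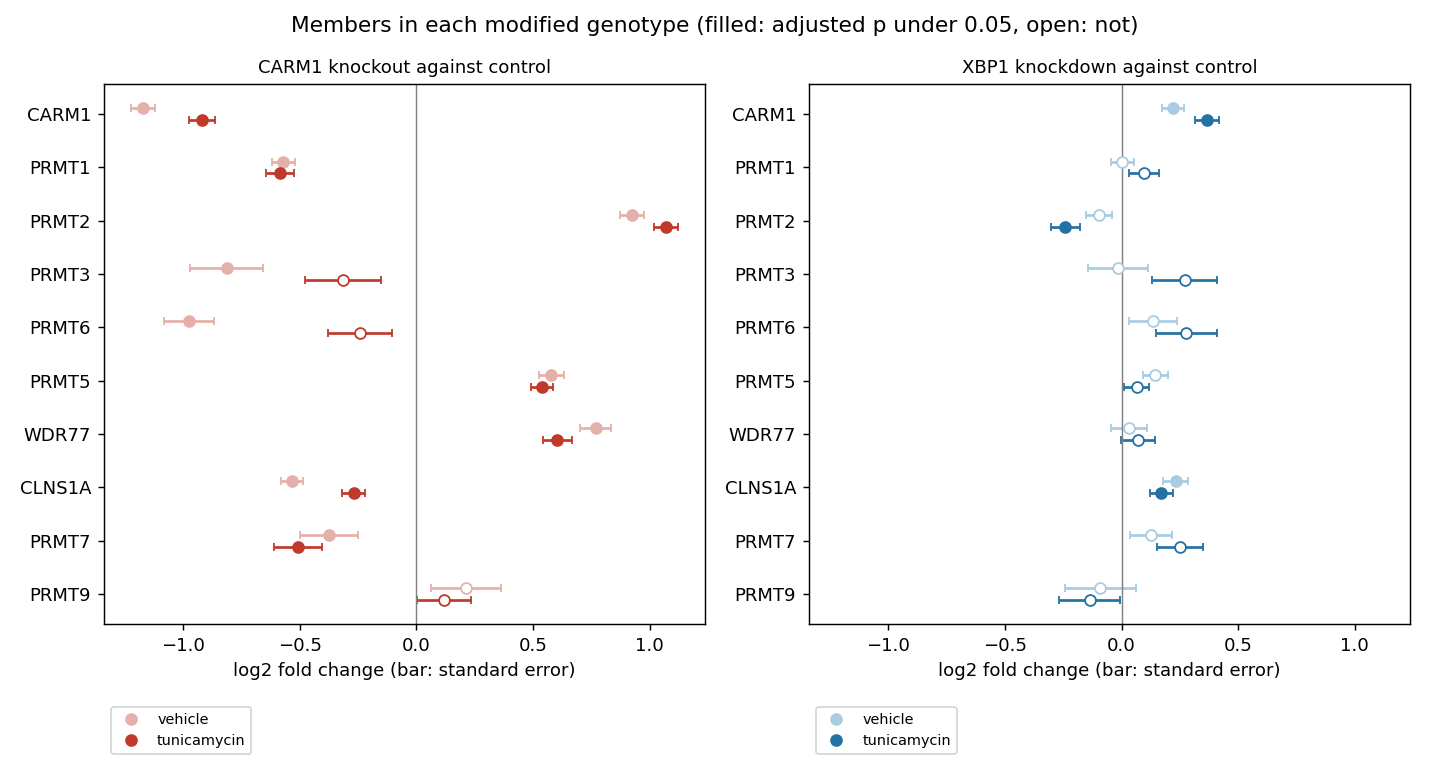
Log2 fold change of each modified genotype against control cells for the 10 members, with vehicle in the pale and tunicamycin in the dark colour, the SE as bars, filled circles for adjusted p under 0.05 and open circles for the others. In the knockout the members range from −1.17 (CARM1, vehicle) to 1.07 (PRMT2, tunicamycin), and in the knockdown from −0.24 (PRMT2, tunicamycin) to 0.37 (CARM1, tunicamycin).

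XBP1 knockdown cells were compared with control cells to see the members when the other gene of the study is lowered. XBP1 itself (ENSG00000100219) fell from 51.1, 43.2 and 43.4 CPM to 25.5, 24 and 26.5 CPM with vehicle (log2 fold change −0.86, edgeR adjusted p = 2.54e-05) and from 149.7 ± 3.02 to 71.5 ± 2.34 CPM with tunicamycin (log2 fold change −1.06, edgeR adjusted p = 5.44e-09). With vehicle 2 members were higher and 0 lower, beside 5.10% of all genes tested in either direction, 2.07% as higher and 3.03% as lower. With tunicamycin 2 were higher and 1 lower, beside 15.5% of all genes, 6.99% as higher and 8.55% as lower. Effects in the knockdown were small: no member changed by 1.5-fold.

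CARM1 was higher in the knockdown, with 193, 189 and 188 CPM with vehicle and 166, 181 and 176 CPM with tunicamycin. Each knockdown library was above each control library under the same treatment, by 1.17-fold (log2 fold change 0.22 ± 0.0489 (SE), edgeR adjusted p = 0.0170) and 1.29-fold (log2 fold change 0.37 ± 0.0523 (SE), edgeR adjusted p = 0.000177). With vehicle the call was lost without control replicate 1 (log2 fold change 0.23, adjusted p = 0.0551), control replicate 2 (log2 fold change 0.22, adjusted p = 0.0822) or knockdown replicate 2 (log2 fold change 0.22, adjusted p = 0.0787), and with tunicamycin it was kept with each library left out in turn.

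CLNS1A was the other member that was higher, with 218, 199 and 199.6 CPM in vehicle-treated knockdown libraries (log2 fold change 0.23 ± 0.0533 (SE), edgeR adjusted p = 0.0206) and 186, 182 and 189.9 CPM with tunicamycin (log2 fold change 0.17 ± 0.0480 (SE), edgeR adjusted p = 0.0241). With vehicle its call was lost without knockdown replicate 1 or 2 or control replicate 1 or 2 (log2 fold change 0.19, 0.26, 0.23 and 0.23). With tunicamycin it was lost without any knockdown replicate or control replicate 3 (0.17, 0.19, 0.16 and 0.17). PRMT2 was lower with tunicamycin, at 83.5, 75.8 and 82.4 CPM (log2 fold change −0.24 ± 0.0610 (SE), edgeR adjusted p = 0.0137), but not without knockdown replicate 2 (log2 fold change −0.20, adjusted p = 0.0752) or control replicate 3 (log2 fold change −0.21, adjusted p = 0.0890). For PRMT5 the log2 fold change was 0.15 with vehicle (95% interval 0.03 to 0.26, edgeR adjusted p = 0.152) and 0.07 with tunicamycin (95% interval −0.05 to 0.18, edgeR adjusted p = 0.477).

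Between the modified genotypes, which share no libraries, all 10 members passed the test with vehicle (4 higher and 6 lower in the knockout, beside 74.5% of all genes, 38.3% as higher and 36.2% as lower) and 9 with tunicamycin (3 higher, 6 lower, beside 74.6%, 38.4% as higher and 36.2% as lower). The same numbers of members, 10 and 9, had no overlap between the groups, beside 76.3% and 76.8% of all genes. CARM1 was 2.58-fold lower in the knockout than in the knockdown with vehicle (log2 fold change −1.37 ± 0.050 (SE), edgeR adjusted p = 1.76e-12) and 2.45-fold lower with tunicamycin (log2 fold change −1.29 ± 0.0543 (SE), edgeR adjusted p = 7.10e-12). PRMT6 was lower with tunicamycin as well in this comparison (log2 fold change −0.52 ± 0.0960 (SE), edgeR adjusted p = 0.000154), and so was PRMT3 (log2 fold change −0.59 ± 0.155 (SE), edgeR adjusted p = 0.00291). PRMT9 passed as higher with vehicle (log2 fold change 0.33 ± 0.123 (SE), edgeR adjusted p = 0.0271), but not without knockout replicate 1 or 2 or knockdown replicate 1 (log2 fold change 0.29, 0.28 and 0.26), not by DESeq2 (adjusted p = 0.0736), not with upper-quartile factors (log2 fold change 0.28, adjusted p = 0.0540) and not with library totals (log2 fold change 0.14, adjusted p = 0.309).

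Tunicamycin against vehicle shows how the members responded to endoplasmic reticulum stress. HSPA5, which encodes the chaperone BiP and marks this stress, rose 8.44-fold in control, 13.63-fold in knockout and 7.89-fold in knockdown cells. In control cells 4 of the 10 members passed the test (1 higher, 3 lower), beside 41.9% of all genes tested (19.9% as lower). In knockout cells 5 passed (3 higher, 2 lower), beside 39.5%, 20.6% as higher and 18.8% as lower, and in knockdown cells 6 (2 higher, 4 lower), beside 38.3%, 19.2% as higher and 19.0% as lower. Vehicle and tunicamycin libraries did not overlap for 5, 5 and 6 members, beside 49.8%, 48.4% and 47.4% of all genes. Among the members PRMT5 rose and PRMT2 fell in all 3 genotypes.

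PRMT5 rose from 110.4, 115 and 105 CPM to 153, 142 and 152 CPM in control cells, 1.36-fold (log2 fold change 0.44 ± 0.0592 (SE), edgeR adjusted p = 1.28e-05). In knockout cells it rose 1.30-fold (log2 fold change 0.38 ± 0.0400 (SE), edgeR adjusted p = 9.49e-08), and in knockdown cells 1.26-fold, from 122, 123 and 122 to 153, 151 and 162 CPM (log2 fold change 0.33 ± 0.0492 (SE), edgeR adjusted p = 5.46e-05). Every tunicamycin-treated library was above every vehicle-treated library of its genotype. PRMT5 was thus lowest in vehicle-treated control cells and highest in tunicamycin-treated knockout cells, at 110.3 ± 4.84 and 215 ± 2.86 CPM. In the order of its 6 group means, the libraries of neighbouring groups overlapped only between tunicamycin-treated knockdown and control cells.

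The adaptors of PRMT5 did not follow it as a group. RIOK1 rose in control (log2 fold change 0.56, edgeR adjusted p = 6.71e-07), knockout (log2 fold change 0.46, edgeR adjusted p = 8.40e-09) and knockdown cells (log2 fold change 0.55, edgeR adjusted p = 5.84e-07). COPRS fell in control (log2 fold change −0.54, edgeR adjusted p = 1.36e-05), knockout (log2 fold change −0.19, edgeR adjusted p = 0.000558) and knockdown cells (log2 fold change −0.49, edgeR adjusted p = 6.21e-05). WDR77 had 47.5, 45.5 and 49.2 CPM in tunicamycin-treated control libraries, within the range with vehicle (log2 fold change 0.01 ± 0.0733 (SE), edgeR adjusted p = 0.936). In the knockout it fell from 79.9, 82.7 and 88.1 to 75, 72.1 and 68.3 CPM (log2 fold change −0.18 ± 0.0550 (SE), edgeR adjusted p = 0.0119), though not past the threshold without replicate 3 of either treatment (−0.15 and −0.14 on the log2 scale).

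CARM1 fell with tunicamycin in control cells, 1.19-fold and without overlap of the groups (log2 fold change −0.25 ± 0.0545 (SE), edgeR adjusted p = 0.00139). In knockdown cells it fell too (log2 fold change −0.13 ± 0.0480 (SE), edgeR adjusted p = 0.0415), but was not past the threshold in 5 of the 6 fits without a library (log2 fold change −0.14 to −0.09 in these 5), nor under 4 other settings of scaling, tool or block (adjusted p = 0.0519 to 0.0902). In knockout cells the remaining transcript was at overlapping levels under both treatments (log2 fold change −0.03 ± 0.0558 (SE), edgeR adjusted p = 0.758). The interaction of knockout and treatment for CARM1 was 0.20 on the log2 scale (95% interval 0.05 to 0.36) and missed the threshold (edgeR adjusted p = 0.0594), but passed it in 6 other settings of scaling, filter or tool (adjusted p = 0.00908 to 0.0455) and in 8 of the 12 fits without a library.

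PRMT2 fell from 118, 124 and 112 to 92.4, 93.8 and 99.7 CPM in control cells (log2 fold change −0.30 ± 0.0616 (SE), edgeR adjusted p = 0.000947). It fell in knockout (log2 fold change −0.17 ± 0.0397 (SE), edgeR adjusted p = 0.00116) and knockdown cells too (log2 fold change −0.47 ± 0.0554 (SE), edgeR adjusted p = 6.00e-06). PRMT6 fell from 26.3, 25.3 and 31.1 to 20.6, 13.7 and 19.8 CPM in control cells, 1.52-fold (log2 fold change −0.60 ± 0.134 (SE), edgeR adjusted p = 0.00159), and from 26.7, 32.1 and 32.5 to 22.8, 20.8 and 21.9 CPM in knockdown cells (log2 fold change −0.49 ± 0.0948 (SE), edgeR adjusted p = 0.000684). In knockout cells, where it was already low, it had 14.1, 13.9 and 15.7 CPM with vehicle and 14.2, 15.8 and 15.6 CPM with tunicamycin (log2 fold change 0.10 ± 0.105 (SE), edgeR adjusted p = 0.475). The difference between the responses of knockout and control cells passed the test as an interaction (0.69 on the log2 scale, SE 0.183, edgeR adjusted p = 0.00913).

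CLNS1A was the other member whose response differed between knockout and control cells. It rose in the knockout (log2 fold change 0.17 ± 0.0443 (SE), edgeR adjusted p = 0.00305) and had a log2 fold change of −0.06 in control cells (SE 0.0521, edgeR adjusted p = 0.375), with an interaction of 0.22 (SE 0.0655, edgeR adjusted p = 0.0196). The interaction was not past the threshold without replicate 2 of the tunicamycin-treated knockout (log2 fold change 0.18, adjusted p = 0.0732) or replicate 1 of the vehicle-treated knockout (log2 fold change 0.20, adjusted p = 0.0627). Thus 2 of the 10 members passed this interaction test, both higher, beside 22.9% of all genes tested, 10.5% as higher and 12.4% as lower. Without replicate 3 of the vehicle-treated control, PRMT2 passed it too (log2 fold change 0.20, adjusted p = 0.0466). In knockdown cells CLNS1A fell (log2 fold change −0.15 ± 0.0502 (SE), edgeR adjusted p = 0.0252), but not past the threshold in 4 of the 6 fits without a library (log2 fold change −0.17 to −0.11 in these 4) or with a replicate block (adjusted p = 0.0509).

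PRMT1 rose with tunicamycin in knockdown cells (log2 fold change 0.23 ± 0.0468 (SE), edgeR adjusted p = 0.00110) and in knockout cells (log2 fold change 0.12 ± 0.0395 (SE), edgeR adjusted p = 0.0197). The call in the knockout was lost without replicate 1 of the tunicamycin-treated (0.08) or replicate 2 of the vehicle-treated libraries (0.09). It was also lost with library totals (log2 fold change 0.06, adjusted p = 0.244), upper-quartile factors (log2 fold change 0.08, adjusted p = 0.135), TMM factors over all 18 libraries (log2 fold change 0.08, adjusted p = 0.0964) and all 18 libraries in 1 fit (log2 fold change 0.08, adjusted p = 0.316). In control cells PRMT1 missed the threshold (log2 fold change 0.16 ± 0.0673 (SE), edgeR adjusted p = 0.0658) and passed it without replicate 1 of the tunicamycin-treated control (log2 fold change 0.22, adjusted p = 0.00550). PRMT3, PRMT7 and PRMT9 did not pass the test in any genotype, with log2 fold changes of −0.31 (PRMT7, knockout, edgeR adjusted p = 0.0513) to 0.32 (PRMT3, knockout, edgeR adjusted p = 0.154). That value of PRMT7 passed under 7 other settings of scaling, filter or fit (adjusted p = 0.0182 to 0.0489) and without replicate 3 of the vehicle-treated knockout (log2 fold change −0.42, adjusted p = 0.00952), and that of PRMT3 without replicate 3 of the tunicamycin-treated (log2 fold change 0.46, adjusted p = 0.0477) or replicate 2 of the vehicle-treated knockout (log2 fold change 0.49, adjusted p = 0.0472).

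For the knockdown, edgeR's interaction test called 0 of the 10 members, beside 2.04% of all genes tested (1.67% as lower), with 0 at an unadjusted p under 0.05 and 0 by DESeq2. The lowest adjusted p was 0.371, for PRMT2 (log2 difference −0.17, 95% interval −0.33 to 0.00). For PRMT5 the log2 difference between the responses of knockdown and control cells was −0.10 (95% interval −0.25 to 0.05), and for CARM1 0.12 (95% interval −0.02 to 0.27).

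**Figure D4:**
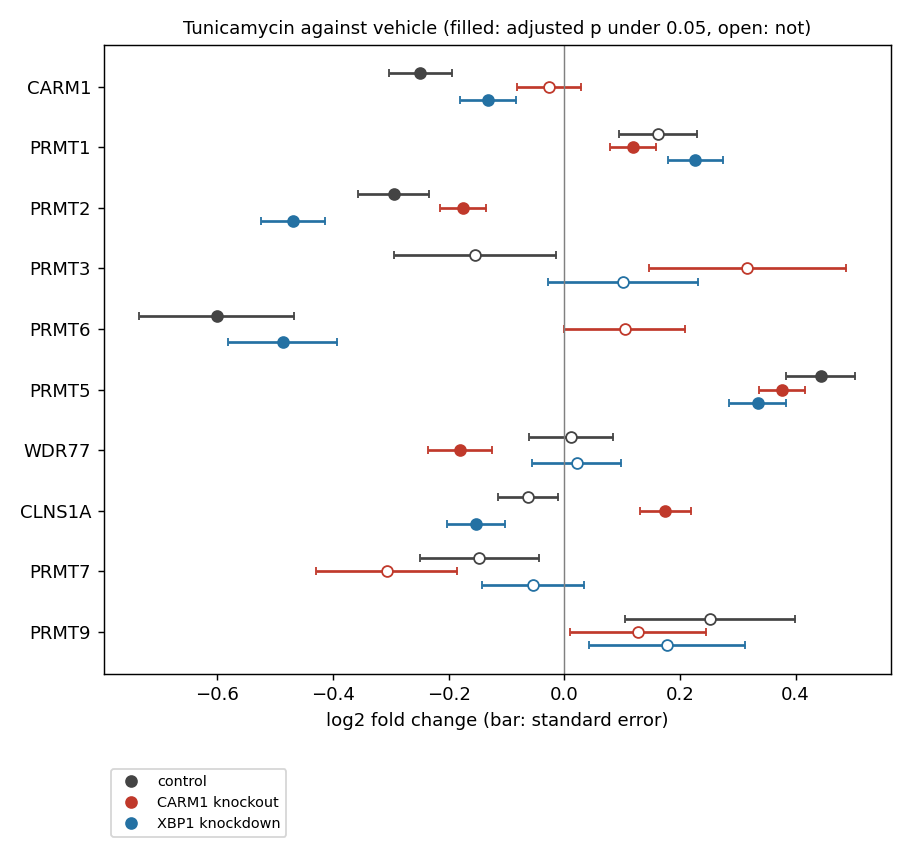
Log2 fold change of tunicamycin against vehicle for the 10 members in control (grey), CARM1 knockout (red) and XBP1 knockdown cells (blue), with the SE as bars, filled circles for adjusted p under 0.05 and open circles for the others. PRMT5 lies right of 0 in all 3 genotypes, at 0.33 to 0.44, and PRMT6 lies left of 0 in control and knockdown cells, at −0.60 and −0.49, and at 0.10 in knockout cells.

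The promoters of CARM1, which fell, and PRMT5, which rose with tunicamycin in control cells, are shown to set the 2 responses beside the sequence. The 250 bases before the start in RefSeq's annotation were taken, 5′ to 3′ on the gene's strand, with build GRCh38.p14, at chr19:10871303-10871552 for CARM1 and chr14:22929377-22929626 on the − strand for PRMT5. All 10 members were found in the promoter table. CARM1 and PRMT7 have a second start there, which is not shown. Capitals mark GGGCGG or its reverse complement (the GC box) in CARM1 and CCAAT or its reverse complement (the CCAAT box) in PRMT5.
CARM1: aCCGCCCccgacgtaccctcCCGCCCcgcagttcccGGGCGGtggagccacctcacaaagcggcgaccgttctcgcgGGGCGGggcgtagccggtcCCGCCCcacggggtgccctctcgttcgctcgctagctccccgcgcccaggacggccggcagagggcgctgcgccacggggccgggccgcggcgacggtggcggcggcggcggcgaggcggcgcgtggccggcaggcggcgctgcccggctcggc
PRMT5: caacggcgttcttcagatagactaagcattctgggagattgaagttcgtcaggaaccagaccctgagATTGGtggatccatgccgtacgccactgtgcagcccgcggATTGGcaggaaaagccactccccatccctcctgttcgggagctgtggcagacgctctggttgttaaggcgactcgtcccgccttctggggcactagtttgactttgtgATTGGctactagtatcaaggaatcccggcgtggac
The CARM1 window has 81.6% G and C, 5 GC boxes and 0 CCAAT boxes. The PRMT5 window has 55.6% G and C, 0 GC boxes and 3 CCAAT boxes, all in reverse orientation. Of the other members that fell in control cells, PRMT2 has 2 GC boxes and 0 CCAAT boxes, and PRMT6 has 0 GC boxes and 0 CCAAT boxes. Over the 35116 promoter windows of the same length, 42.6% hold a GC box and 32.0% a CCAAT box on either strand. ACGTCA, the core of sites bound by spliced XBP1, is in 7.10% of all windows and, among the members, in PRMT9 alone, with 2 matches. TGATGNAA, a core of composite ATF4 sites, is in 3.14% of all windows and in none of the members. The ER stress element, a CCAAT box and CCACG with 9 bases of any kind between them, is in 0.0740% of all windows and in none of the members, and HSPA5 holds it as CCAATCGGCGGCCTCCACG. A match or its absence describes these letters in this window and nothing about a factor.

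Levels of the other members were also set beside CARM1 over all 18 libraries, as a description. The libraries share groups and the gap between knockout and other libraries, so r over the 12 control and knockdown libraries is given beside it. CLNS1A had r = 0.954 over 18 and 0.895 over 12 libraries, and PRMT7 had 0.903 and 0.886. PRMT6 had 0.826 and 0.646, and PRMT9 −0.62 and −0.49. PRMT3 had 0.835 and 0.404, and PRMT5 −0.80 and −0.31. For PRMT1 (0.883 and −0.11), PRMT2 (−0.89 and 0.107) and WDR77 (−0.91 and 0.134) the sign changed without the knockout libraries. Of the 9523 genes expressed above a floor of 3 in mean log2 CPM, 1455 had r of at least 0.9 with CARM1 over all 18 libraries. The 5 highest were RCC2 (0.995), a regulator of chromosome condensation, CBR3 (0.991), a carbonyl reductase, TOR3A (0.990), an ATPase of the endoplasmic reticulum, SPRY4 (0.990), an inhibitor of growth factor signalling, and PAX2 (0.989), a developmental transcription factor. Over the 12 control and knockdown libraries their r was 0.961, 0.977, 0.930, 0.950 and 0.978, in the same order. RCC2 had 535 CPM in vehicle-treated control, 241 in vehicle-treated knockout and 599.9 in vehicle-treated knockdown cells.

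The wider arginine methylation pathway was described from lists written from general knowledge. Outside the members 59 genes were listed and 55 tested. PADI3 and PADI4 failed the filter, and PADI6 and TAF15 were not analysed here. Of the 55, 16 were higher and 31 lower in knockout than in control cells with vehicle, beside 37.5% and 36.9% of all genes tested, and 18 and 29 with tunicamycin, beside 38.4% and 36.8%. In the knockdown 2 were higher and 3 lower with vehicle, beside 2.07% and 3.03% of all genes, and 8 and 6 with tunicamycin, beside 6.99% and 8.55%. With tunicamycin in control cells 19 rose and 12 fell, beside 41.9% of all genes in either direction. The counts of the single lists are read against these shares, and none is called particular to its list.

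The methyl donor cycle makes S-adenosylmethionine and clears its products. Of its 10 genes 4 rose and 2 fell with tunicamycin in control cells, beside 41.9% of all genes in either direction, with a median log2 fold change of 0.14 over the 10 genes. MTRR, which keeps methionine synthase active, rose (log2 fold change 0.73, edgeR adjusted p = 2.57e-05), and MAT2A, which makes S-adenosylmethionine outside the liver, fell from 239 ± 4.61 to 163 ± 2.55 CPM (log2 fold change −0.54, edgeR adjusted p = 3.12e-07). MAT2A fell in knockout (log2 fold change −0.29, edgeR adjusted p = 2.68e-05) and knockdown cells as well (log2 fold change −0.49, edgeR adjusted p = 3.56e-07). Against control cells, the knockout had 3 genes of the cycle higher and 6 lower under either treatment. Of all genes tested, 74.4% with vehicle and 75.2% with tunicamycin were called in either direction. ADK, which removes adenosine, was 3.98-fold higher with vehicle (log2 fold change 1.99, edgeR adjusted p = 1.53e-13), and MTR, methionine synthase, was lower (log2 fold change −0.88, edgeR adjusted p = 4.19e-10). MAT1A, the liver form of the synthetase, had 25 to 63 counts in vehicle-treated control libraries and 0 to 1 in vehicle-treated knockout libraries.

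Among cofactors of PRMT1, BTG1 rose 4.55-fold with tunicamycin in control cells (log2 fold change 2.19, edgeR adjusted p = 6.23e-12), 3.65-fold in knockout (log2 fold change 1.87, edgeR adjusted p = 2.01e-19) and 5.83-fold in knockdown cells (log2 fold change 2.54, edgeR adjusted p = 2.75e-12). Its level in vehicle-treated knockout cells was 107 ± 6.74 CPM against 12.3 ± 0.857 in control cells (log2 fold change 3.07, edgeR adjusted p = 1.48e-14). BTG2, its relative, went the other way, with 1.34 ± 0.254 CPM in knockout and 11.1 ± 0.606 CPM in control cells (log2 fold change −3.06, edgeR adjusted p = 7.64e-10). NDUFAF7, a mitochondrial arginine methyltransferase of another fold, was lower in the knockout with vehicle (log2 fold change −0.90, edgeR adjusted p = 9.06e-07) and with tunicamycin (log2 fold change −1.4, edgeR adjusted p = 7.57e-09). METTL23 was lower with vehicle (log2 fold change −0.46, edgeR adjusted p = 4.13e-05) but did not pass the test with tunicamycin.

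All 7 coactivator partners of CARM1 differed between knockout and control cells, 2 higher and 5 lower under either treatment, beside 74.4% and 75.2% of all genes tested, with medians of −0.47 and −0.49. NCOA1, a p160 coactivator, was lower with vehicle (log2 fold change −1.59, edgeR adjusted p = 1.15e-09), and so were the acetyltransferases CREBBP (log2 fold change −1.19, edgeR adjusted p = 1.45e-10) and EP300 (log2 fold change −1.15, edgeR adjusted p = 8.50e-12). CALCOCO1 was higher (log2 fold change 2.22, edgeR adjusted p = 2.75e-07). In the knockdown none of the 7 passed with vehicle, beside 5.10% of all genes tested. EP300 was higher with tunicamycin (log2 fold change 0.19, edgeR adjusted p = 0.0135).

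Of 20 tested substrates of the family, 5 were higher and 10 lower in the knockout with vehicle (median −0.09) and 7 and 10 with tunicamycin (median −0.19), beside 74.4% and 75.2% of all genes called. The lowest log2 fold change of the list with vehicle was −1.22, while SNRPC, RPS2 and PABPC1 are from the smaller, higher part. SNRPC, an early splicing factor methylated by CARM1, was higher with vehicle (log2 fold change 1.32, edgeR adjusted p = 6.94e-13). RPS2, the substrate of PRMT3, was higher (log2 fold change 1.14, edgeR adjusted p = 5.18e-12), and so was PABPC1 (log2 fold change 1.04, edgeR adjusted p = 3.27e-12); both have pseudogene copies that could share their reads. With tunicamycin in control cells 6 rose and 6 fell, beside 41.9% of all genes in either direction. The Sm protein gene SNRPD1, a substrate of PRMT5, fell 1.85-fold (log2 fold change −0.89, edgeR adjusted p = 1.12e-09), and EWSR1, a substrate of PRMT1, rose (log2 fold change 0.62, edgeR adjusted p = 4.25e-08). The fall of SNRPD1 was smaller in the knockout (log2 fold change −0.32, edgeR adjusted p = 3.49e-07), with an interaction of 0.54 (edgeR adjusted p = 2.31e-06). ELAVL1, which CARM1 methylates, was lower in the knockdown with tunicamycin (log2 fold change −0.53, edgeR adjusted p = 1.75e-05).

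Of the 6 readers of methylarginine, 1 was higher and 4 lower in the knockout with vehicle (median −0.57) and 2 and 3 with tunicamycin (median −0.33), beside 74.4% and 75.2% of all genes called. SND1, a Tudor protein, was lower in the knockout (log2 fold change −0.96, edgeR adjusted p = 1.42e-10) and rose with tunicamycin in control (log2 fold change 0.70, edgeR adjusted p = 2.42e-08), knockout (log2 fold change 0.70, edgeR adjusted p = 2.86e-10) and knockdown cells (log2 fold change 0.57, edgeR adjusted p = 1.30e-07). TDRD3 was lower in the knockout (log2 fold change −1.10, edgeR adjusted p = 2.80e-07). SMN1 (log2 fold change −0.59, edgeR adjusted p = 0.000646) and SMN2 (log2 fold change 1.27, edgeR adjusted p = 2.57e-05) are near-identical copies, and their division of reads is uncertain. Of the enzymes that break down free dimethylarginine, DDAH1 was 2.54-fold (log2 fold change 1.35, edgeR adjusted p = 2.54e-12) and DDAH2 2.37-fold higher in the knockout with vehicle (log2 fold change 1.25, edgeR adjusted p = 3.69e-11). DDAH1 fell with tunicamycin in the knockout (log2 fold change −0.46, edgeR adjusted p = 1.56e-09) and rose in control cells (log2 fold change 0.17, edgeR adjusted p = 0.0381), with an interaction of −0.65 (edgeR adjusted p = 8.07e-07). JMJD6, a dioxygenase that has been reported as an arginine demethylase, had the only interaction of this list in the knockdown (−0.67, edgeR adjusted p = 0.00242). PADI1, an arginine deiminase, had 0 to 2 counts in vehicle-treated and 11 to 22 in tunicamycin-treated control libraries.

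**Figure D5:**
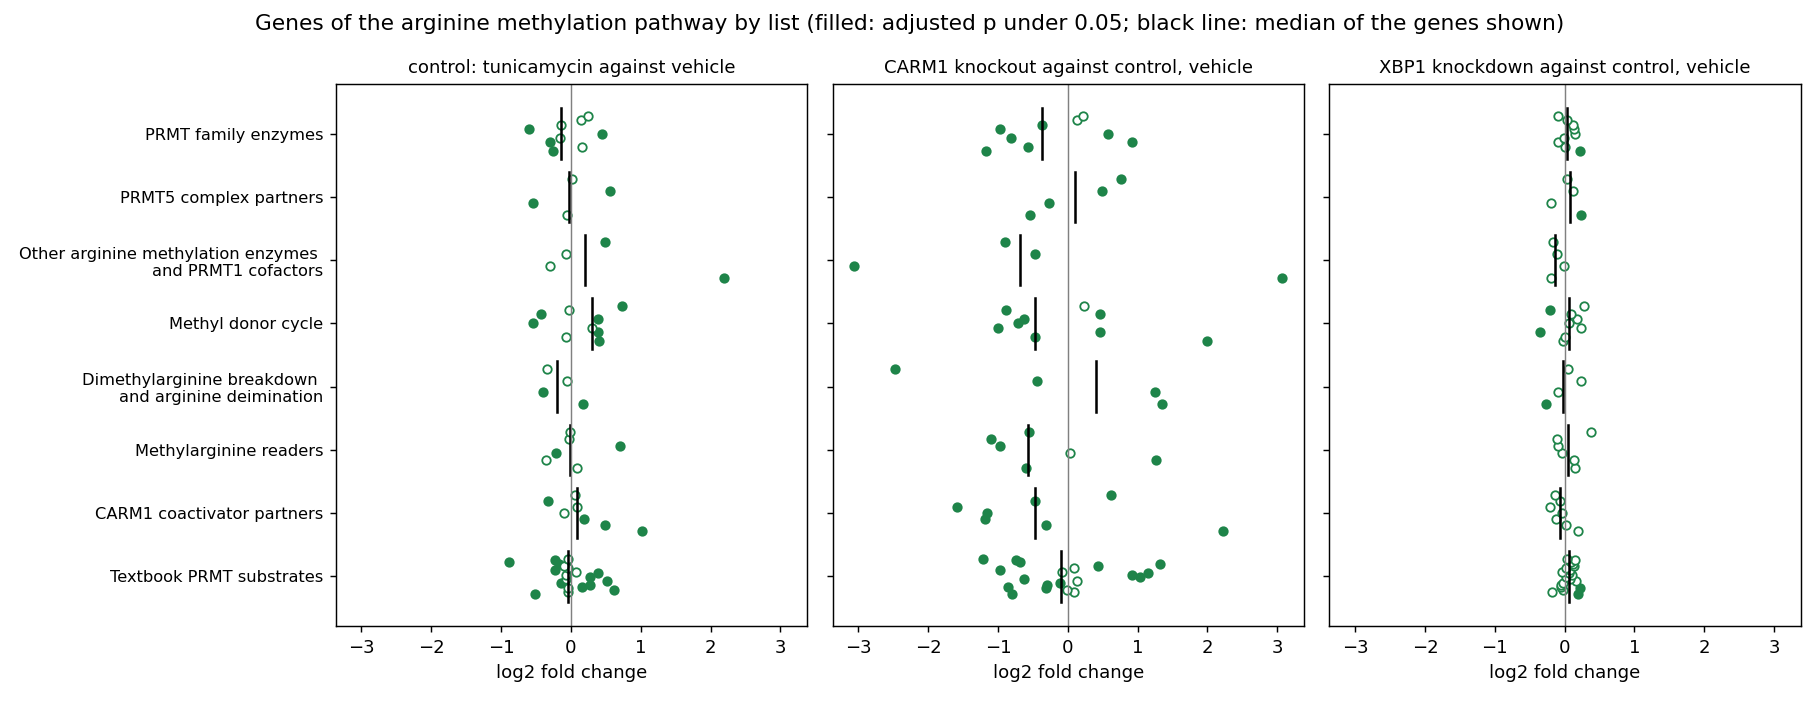
Log2 fold change of the genes of each list (members included) for tunicamycin in control cells, for the knockout and for the knockdown with vehicle, with filled circles for adjusted p under 0.05, open circles for the others and a black line for the median of the genes shown. MAT1A and PADI1, with at most 3 counts in every library of a group, are left out, and the spread in the knockout panel, −3.06 to 3.07, is wider than in the other panels.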

How the data were processed

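Transcripts were measured by 3′ mRNA sequencing (75 nt single reads). Reads were aligned to hg19 by the authors with bowtie2. RSEM (version 1.2.3 in the submitters' notes) gave the deposited values, which are expected counts of Ensembl genes, written as whole numbers and not normalized. The annotation release and strand setting are not given in the sources used here. Symbols and GRCh37 positions were matched for 55501 of 57736 genes with GENCODE. In R 4.3.3, edgeR 4.0.16 was run with filterByExpr (minimum count 10), TMM factors over the libraries in the fit, quasi-likelihood F tests on the compared groups alone and Benjamini-Hochberg adjustment over 17317 genes, with calls at 0.05. Intervals of fold changes are not adjusted for the number of genes. SE is the log2 fold change over the square root of F. CPM used TMM factors over all 18 libraries, and log values a prior count of 2. Replicate pairs differed beyond counting error (chi-square per degree of freedom 1.84 to 6.89). With 3 against 3 libraries an exact permutation test cannot go below 0.1, so none was used. Library totals of 9367462 to 13917212 set the depth. The scripts were tested on simulated data.

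The members and lists were chosen with earlier results of these data known. Named genes are the members, PRMT8, XBP1, HSPA5, at most the 4 largest called changes of each list per comparison, the 5 genes most like CARM1 and its adjacent tested genes. Alternatives were DESeq2 1.42.0 and its size factors, upper-quartile factors, library totals, other filters, all libraries in 1 fit, replicate number as a block, calls at 1% FDR or with a minimum of 1.5-fold, and each library left out. TMM factors over all 18 libraries in the fits were added after seeing the data. Promoter sequences are from RefSeq (GRCh38.p14). Of the 24 cell type markers 23 were matched. The protein, CUT&RUN and animal data of the study were not analysed here.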

Additional observations from a re-analysis of the deposited data

Results flagged for a closer look

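PRMT6 and CLNS1A were marked because their response to tunicamycin differed between CARM1 knockout and control cells by the interaction term of edgeR's fit. For PRMT6 the interaction was 0.69 on the log2 scale: control libraries fell from 26.3, 25.3 and 31.1 to 20.6, 13.7 and 19.8 CPM and knockout libraries had 14.1, 13.9 and 15.7 and 14.2, 15.8 and 15.6 CPM. It passed the threshold in every fit without a library. For CLNS1A the interaction was 0.22, with 121, 128 and 124 CPM with vehicle and 135, 143 and 131 CPM with tunicamycin in knockout libraries, and 174, 174 and 174 and 164, 168 and 164 CPM in control libraries. In both cases the knockout libraries also differ from the others in the lineage markers PAX8 and COL1A2, whose part in the interaction was not tested. Groups of 3 libraries are too small for the outlier test, which was not run.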

How the results depend on the processing

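Of 1210 values of a single member in a comparison under alternatives other than leaving out a library, 1133 kept their direction and their side of the threshold, 59 lost the call, 18 gained it and 0 reversed. Of 780 with a library left out these were 731, 32, 17 and 0.

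Asking for 1.5-fold as well left 0 members higher and 1 lower with tunicamycin in control cells, 0 and 0 in knockout cells, and 0 and 0 in knockdown cells. In the knockout against control it left 3 lower with vehicle and 1 lower with tunicamycin, in the knockdown against control 0 higher with vehicle and 0 higher and 0 lower with tunicamycin, in the knockout against the knockdown 2 higher with vehicle and 1 higher with tunicamycin, and in the knockout interaction 1 higher. An FDR of 1% left 1 higher and 0 lower in the knockdown against control with tunicamycin, 0 higher with vehicle, 1 higher in the knockout interaction, 1 lower with tunicamycin in knockout cells and 2 lower in knockdown cells. In control cells 2 members rose with all 18 libraries in one fit, and 2 without a filter on low counts. The 1.5-fold and 1% settings ask more of the same fits, and for the others the cause was not tested.

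Same-numbered libraries did not deviate together (r of deviations −0.05 to 0.04 over 9 comparisons), so the numbers do not pair them. A replicate block left 2 members lower with tunicamycin in knockdown cells, of 4, and its other counts of members stayed within 1.5 times.

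With library totals in place of TMM, the median log2 difference over all genes moved to −0.19 (vehicle) and −0.17 (tunicamycin) in the knockout, and the CARM1 remaining to 39.5% and 47.1%. Library totals also gave a call to CLNS1A with tunicamycin in control cells (log2 fold change −0.16, adjusted p = 0.0248). The median of CARM1's neighbours moved to 0.30 and 0.42 within 0.5 Mb and to −0.10 and 0.051 within 2 Mb. Of the 5 genes most like CARM1, 2 were also among the 5 by Spearman's rho.

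With each library left out in turn, members higher and lower ranged from 1 to 2 and 3 to 3 with tunicamycin in control cells, 2 to 4 and 1 to 2 in knockout cells, and 2 to 2 and 2 to 3 in knockdown cells. They ranged from 3 to 3 and 5 to 6 in the knockout against control with vehicle, 3 to 3 and 4 to 5 with tunicamycin, 0 to 2 and 0 to 0 in the knockdown against control with vehicle, and 1 to 2 and 0 to 1 with tunicamycin. In the knockout against the knockdown they ranged from 3 to 4 and 6 to 6 with vehicle and 3 to 4 and 6 to 6 with tunicamycin, and in the knockout interaction from 1 to 4 and 0 to 0. The CARM1 remaining ranged from 43.4 to 45.3% and from 51.1 to 54.2%.

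Depth limits PRMT3, PRMT7 and PRMT9 (54 to 302 counts per library) and PRMT8 (6 to 21), whose counts were the lowest of the family beside PRMT6 (137 to 465).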
